A study of Homo sapiens with 15 samples.

Results

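Among the protein-coding genes that lie more than 2 Mb from a chromosome end, 39 were almost unread in young MRC-5 cells and read in senescent ones. A gene entered this set when its mean was below 0.1 CPM (the count scaled by the library's total count) over the 3 young libraries with the empty vector and when it had at least 0.5 CPM in each of the 3 senescent libraries with the empty vector. The 39 genes were thus selected on the values of these 6 libraries, out of 17636 that the rule could take (of 57272 genes in the table), and these values are given as a description, with no test. Genes were also left out where their symbol begins with ZNF, HOX, TBX, COL, MMP, PCDH, H1-, H2BC, H2AC, H4C or H3C, prefixes that do not take in the histone gene H3-7. Another 5738 genes were equally silent in young cells carrying the empty vector but were not read at 0.5 CPM in every senescent library.

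MRC-5 is a line of human lung fibroblasts. Cultures with few divisions behind them (PD 30, population doublings) are the young cells, and cells that had stopped dividing after long culture are the senescent ones. Each of 5 groups has 3 libraries. Young cells were infected with an empty virus (pWPIR-GFP) or with a virus for TRF2 (pWPIR-GFP-TRF2), the shelterin protein that binds the double-stranded part of telomeres, and carried a control siRNA. A further group of young cells with the empty virus received an siRNA against LMNB1, the gene of the nuclear lamina protein Lamin B1 (siLMNB1). Pre-senescent cells were infected with the empty or the TRF2 virus, and carried the control siRNA when RNA was taken at the growth plateau. All cells therefore carried a virus and an siRNA, and all came from 1 cell line. Per the labels the 6 senescent libraries were deposited before and analysed again, whereas none of the 9 young ones was, so that senescence and the deposit cannot be told apart in any comparison here. The labels do not say that replicates came from separate cultures, and p-values measure the spread between these libraries.

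Replicative senescence is a stable arrest that follows telomere shortening. Senescent fibroblasts lose Lamin B1, keep cyclin-dependent kinase inhibitors such as p21 high and secrete a changed set of proteins. Tissue-specific genes that a fibroblast does not use are mostly kept silent by chromatin, with CpG-rich promoters held by Polycomb complexes and CpG-poor ones by DNA methylation or by the lack of an activator.

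The labels were checked first. TERF2, the TRF2 gene, stood at 193 ± 98.7 CPM in young TRF2 cells (SD, n = 3; 306 CPM in the second library and 126 and 147 in the others) and 228 ± 39.5 in senescent TRF2 cells, against 23.8 to 25.8 in the other 3 groups. LMNB1 was at 59.7 ± 1.22 CPM in young cells with the empty vector, 2.81 ± 0.294 with siLMNB1 and 5.08 ± 0.588 in senescent cells with the empty vector. MKI67, a gene of dividing cells, was at 61.5 ± 6.62 CPM in young cells with the empty vector. It was at 67.6 ± 37.4 with TRF2 and lower, at 24.8 ± 6.25, with siLMNB1. In senescent cells MKI67 was at 6.31 ± 1.52 CPM with the empty vector and 2.72 ± 0.373 with TRF2. All 10 fibroblast markers were at 0.5 CPM or more in every library, of 8 erythroid markers none was, and of 8 leukocyte markers only CORO1A and, in senescent cells, CD14 were. Of 8 epithelial markers 4 reached that level in each group (KRT8, KRT18 and KRT19 in all groups, and CLDN4 or, with siLMNB1, EPCAM), and the 8 summed to 34.4 to 50.1 CPM in young and 45 to 66.6 CPM in senescent libraries. Of 8 endothelial markers TEK and VWF reached it in all groups and KDR in the young ones (sums of 30.6 to 55.2 and 23.2 to 68.1 CPM), and of 8 markers of smooth and skeletal muscle ACTG2 did in all groups, with DES in young cells with the empty vector and TNNT1 in senescent TRF2 cells (175 to 303 and 130 to 235 CPM). The summed leukocyte markers lay between 2.43 and 3.73 CPM in young and 2.32 and 4.39 CPM in senescent libraries. Total counts ran from 26725885 to 43116046 per library, so that 0.1 CPM is 2.67 to 4.31 reads and 0.5 CPM is 13.4 to 21.6 reads. Relative to the young cells with the empty vector, a gain of 10 points in a gene's GC percentage went with a gain of 0.447 to 0.802 in log2 counts in senescent libraries, most in the third one with the empty vector, and with −0.00617 to 0.13 in young libraries. The 39 members have a median GC content of 52.7%, the 17636 eligible genes one of 48%.

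The members fell into 2 parts, a division made after their values were seen. Of 39 genes, 8 were hardly read in any of the 9 young libraries, with 0 to 11 reads over all 9 together, yet had 45 to 22707 reads in each of the 6 senescent libraries. These were PALM2AKAP2, POLR2F, PYURF, ZBTB9, ATRIP, IQCJ-SCHIP1, DEXI and H3-7. The other 31 had 1 to 89 reads over the 9 young libraries and moderate levels in senescent cells, with a median of 1.14 CPM (0.623 to 9.5) in cells with the empty vector. Summed over these 31 genes, the young libraries held 0.973 to 1.78 CPM with the empty vector. They held 2.01 to 3.3 CPM with TRF2 and 3.86 to 5.31 with siLMNB1. The senescent ones held 52.5 to 58.3 CPM with the empty vector and 58.2 to 66.5 with TRF2. The rule chose genes for low values in young cells with the empty vector, which by itself favours higher sums in the other young groups. With siLMNB1 the highest means were those of LIPH (0.649 CPM) and ANKRD24 (0.616 CPM).

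**Figure D1:**
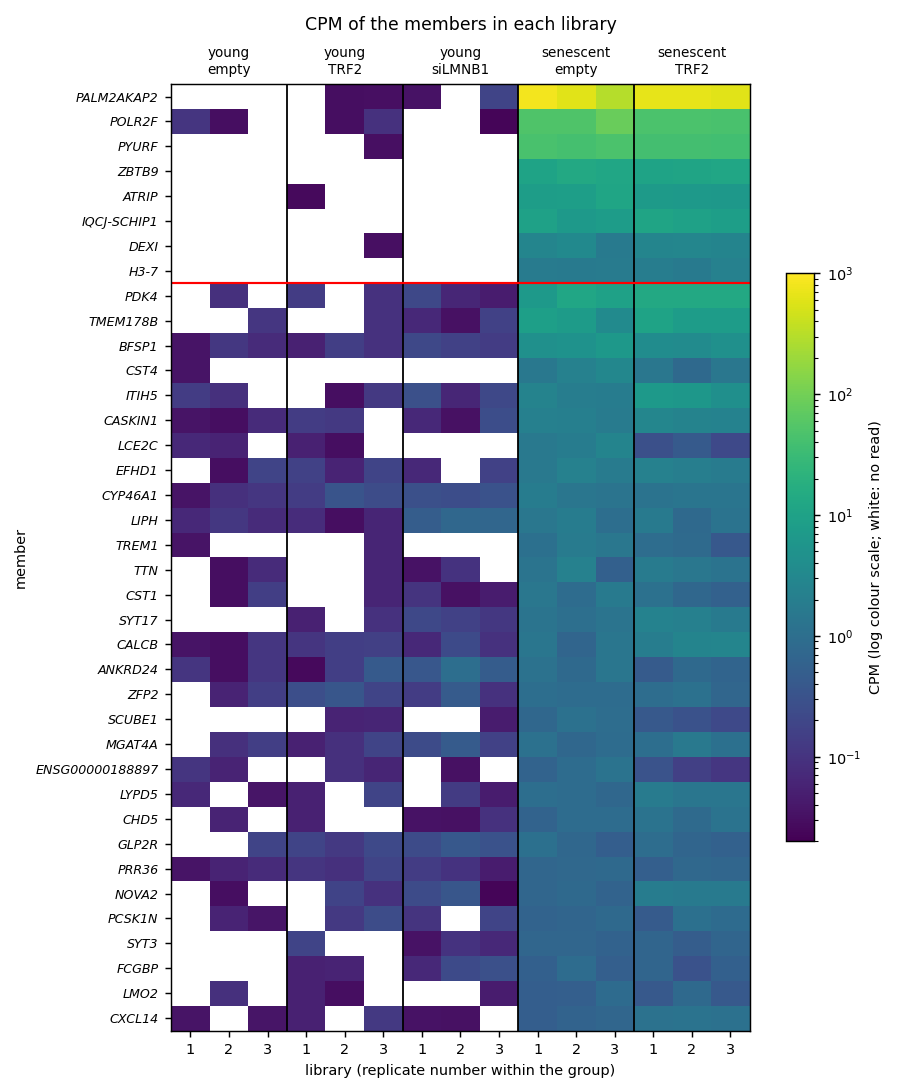
CPM of the members (rows) in each of the 15 libraries (columns, 3 per group) on a log colour scale, with white for no read. The red line parts the 8 members hardly read in any young library (top) from the others. Rows of each part run from the highest to the lowest mean in senescent cells with the empty vector, 1 of the 39 members has no row, and each row is dark or white in the 9 young columns and brighter in most of the 6 senescent ones.

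RefSeq promoters were on hand for 26 of the 39 members. Sequences are shown for 5 members with high levels or large changes, 3 of them rich in CpG and 2 with a TATA box near the start. In the first 3, capitals mark each CpG. All are the 250 bases before the RefSeq start on GRCh38.p14, read 5′ to 3′ on the gene's strand. They lie at chr7:95596517-95596766 (minus strand, PDK4), chr7:141073814-141074063 (plus, TMEM178B) and chr10:7666967-7667216 (minus, ITIH5).
PDK4: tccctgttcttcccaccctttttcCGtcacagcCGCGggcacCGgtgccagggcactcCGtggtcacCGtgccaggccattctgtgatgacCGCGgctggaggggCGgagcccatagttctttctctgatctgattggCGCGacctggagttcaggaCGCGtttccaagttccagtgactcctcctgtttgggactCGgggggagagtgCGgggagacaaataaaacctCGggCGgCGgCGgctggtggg
TMEM178B: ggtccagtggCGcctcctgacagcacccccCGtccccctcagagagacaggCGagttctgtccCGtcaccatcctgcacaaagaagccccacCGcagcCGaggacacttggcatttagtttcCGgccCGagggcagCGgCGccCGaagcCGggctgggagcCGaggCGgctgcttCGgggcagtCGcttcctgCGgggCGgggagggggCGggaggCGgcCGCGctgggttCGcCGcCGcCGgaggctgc
ITIH5: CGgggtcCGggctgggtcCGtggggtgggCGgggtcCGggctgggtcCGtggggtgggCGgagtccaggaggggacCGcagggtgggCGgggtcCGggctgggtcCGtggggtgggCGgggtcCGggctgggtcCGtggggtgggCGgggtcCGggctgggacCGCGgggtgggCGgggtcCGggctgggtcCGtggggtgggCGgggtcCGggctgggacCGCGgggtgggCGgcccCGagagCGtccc
These stretches hold 19, 26 and 28 CpG. In the next 2, capitals mark the TATA box (TATAAA), which begins 30 bases before the start in LCE2C (chr1:152675029-152675278, plus strand) and 32 bases before it in H3-7 (chr1:143905978-143906227, minus strand).
LCE2C: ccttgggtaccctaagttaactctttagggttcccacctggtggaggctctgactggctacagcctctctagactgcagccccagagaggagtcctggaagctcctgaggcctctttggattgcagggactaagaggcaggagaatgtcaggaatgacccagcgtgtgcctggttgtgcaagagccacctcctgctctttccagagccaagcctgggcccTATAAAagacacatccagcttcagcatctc
H3-7: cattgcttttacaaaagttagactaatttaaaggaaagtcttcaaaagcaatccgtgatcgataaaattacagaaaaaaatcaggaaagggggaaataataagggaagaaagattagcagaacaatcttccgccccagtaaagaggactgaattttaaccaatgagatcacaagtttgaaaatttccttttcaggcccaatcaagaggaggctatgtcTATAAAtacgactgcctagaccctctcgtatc
In the 300 bases around the start (250 before, 50 after), 17 of 26 members (65.4%) had a ratio of observed to expected CpG of at least 0.6, as did 66% of the promoters of eligible genes and 29% of those of the 4089 other genes silent in young cells that had a promoter. Among the 8 members hardly read in young cells the share was 7 of 8, and among the others 10 of 18 (55.6%). The median ratio was 0.736 in members and 0.311 in the other silent genes. The low-CpG promoters belong to TREM1, LCE2C, FCGBP, TTN, LYPD5, IQCJ-SCHIP1, LIPH and GLP2R, from 0.125 to 0.446. PCSK1N lay at the limit of 0.6. H3-7, shown for its TATA box, had a ratio of 0.726, so these 2 features do not part the members into separate kinds.
Motifs were searched on both strands, and each share is given for member promoters, then for those of eligible genes and for all 35116 promoters in the table. GGGCGG was found in 73.1% (58.7% and 45%), CCAAT in 42.3% (36.3% and 34.6%), TATAAA in 11.5% (9.6% and 11.5%) and CANNTG in 57.7% (64.7% and 68.7%). TGACTCA or its complement TGAGTCA was found in 11.5% (3.73% and 4.95%), in members those of BFSP1, CXCL14 and PCSK1N, and TTCCNGGAA in 0% (1.18% and 1.15%). The motif GGGCGG itself holds a CpG. These matches are descriptions of letters and no test was made.

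PDK4, one of the 31 other members, codes for the kinase that phosphorylates and slows the pyruvate dehydrogenase complex (7:95583499-95596516, minus strand). It had 186, 323 and 306 reads in senescent libraries with the empty vector and 439, 454 and 488 with TRF2. In young cells it had 0, 3 and 0 reads with the empty vector, 5, 0 and 3 with TRF2, and 6, 2 and 2 with siLMNB1. Every senescent library thus stood far above every young one. The level was 9.5 ± 2.62 CPM with the empty vector and 13.7 ± 0.195 with TRF2 (SD, n = 3).

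TMEM178B, which codes for a membrane protein (7:141074064-141480380, plus strand), had 240, 200 and 113 reads in senescent cells with the empty vector and 339, 260 and 291 with TRF2, against at most 7 reads in any young library. The lens filament gene BFSP1 (filensin) had 126, 131 and 202 reads in senescent cells with the empty vector and 122, 122 and 164 with TRF2, against 1 to 6 in young libraries. In both genes all senescent libraries lay above all young ones. BFSP1 is described here for its level, although its rank by fold change did not put it among the genes named by rule.

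Levels between genes were compared per kb of exon. Outside the 8 genes set apart above, the highest means in senescent cells with the empty vector were those of LCE2C (3.25 CPM per kb), CST4 (3.07), PDK4 (2.09) and CST1 (1.6), followed by BFSP1 (1.57). LCE2C codes for a protein of the cornified envelope of the epidermis. CST4 and CST1 code for cystatin S and cystatin SN, secreted inhibitors of cysteine proteases, and are neighbours on chromosome 20 (20:23685640-23689038 and 20:23747562-23751268, both minus strand). CST4 had 41, 63 and 97 reads in senescent cells with the empty vector and 46, 27 and 53 with TRF2. In young cells 1 read was counted over all 9 libraries. CST1 had 40, 25 and 55 reads, then 36, 24 and 21 with TRF2, against 0 to 4 in young libraries. The cystatin genes are near copies of each other, so that the split of reads between them is uncertain.

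At the other end TTN, the titin gene of muscle, had only 0.0117 CPM per kb in senescent cells with the empty vector although its count reached 62. Its reads numbered 35, 62 and 18 with the empty vector and 58, 48 and 44 with TRF2, against 0 to 3 in young libraries. With 118976 exonic bases, of which 17.8% are shared with another gene, it collected the reads of a long gene at a low level.

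Senescent and young cells that carried the TRF2 virus gave a comparison with none of the 6 libraries of the rule. It asks whether the difference that chose the members is also found between these other libraries. Of the 39 members, 38 rose (edgeR quasi-likelihood test, adjusted p below 0.05 and log2 fold change of at least 1), where 11.9% of the 15799 genes tested were called higher. In all 39 each senescent TRF2 library stood above each young TRF2 library, where 34.7% of all tested genes did so. The median log2 fold change was 4.88 (1.70 to 14.81), against −0.02 over all genes tested. It was 4.90 for the ratio of pooled CPM with the 4 members that had no read in young TRF2 cells held at their bound of 3 reads over the group. Among the 31 other members 30 rose, with a median log2 fold change of 4.26 (4.31 for the ratio with bounds). All 39 members passed the filter on low counts through the senescent libraries that chose them, and 35 would have passed without those. All of these 35 were called. The others were SCUBE1, FCGBP, LCE2C and ENSG00000188897. Their tests, here and with siLMNB1, were open only through the rule's own libraries.

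**Figure D2:**
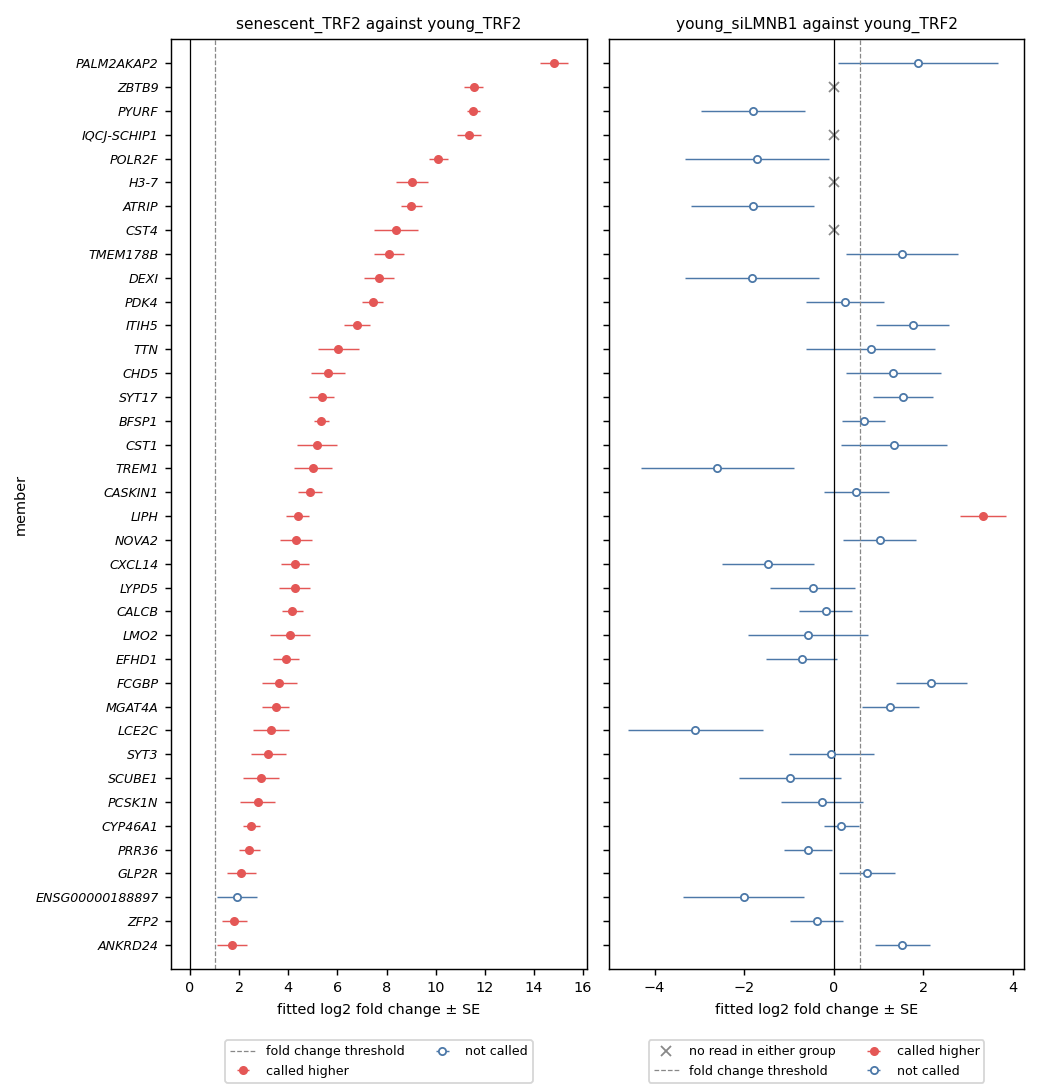
Fitted log2 fold change with its standard error (edgeR, 3 libraries per group) of 38 of the 39 members in 2 comparisons without libraries of the rule, ordered by the first. In senescent_TRF2 against young_TRF2 all members drawn but ENSG00000188897 are called higher (filled red), while in young_siLMNB1 against young_TRF2 LIPH alone is, and crosses mark 4 members with no read in either group.

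Several members code for secreted proteins or their inhibitors, a grouping made after their values were seen. CST4 was at least 43.1-fold higher in senescent than in young TRF2 cells, since no read fell on it in the latter. ITIH5 codes for a heavy chain of the inter-alpha-trypsin inhibitor family, proteins that bind hyaluronan, and lies at 10:7559270-7666998 (minus strand). It had 211, 200 and 161 reads in senescent TRF2 cells and 0, 1 and 4 in young TRF2 cells, a log2 fold change of 6.80 (SE 0.53, adjusted p = 1.4e-08, edgeR). CST1, with 2 reads in young TRF2 cells, rose (adjusted p = 4.1e-05, edgeR) with a ratio of pooled CPM of 41.6 (95% counting interval 11.1 to 349). CXCL14, a chemokine of epithelia and fibroblasts, had 37, 41 and 41 reads against 2, 0 and 4, a log2 fold change of 4.28 (SE 0.57, adjusted p = 8.4e-06, edgeR). CALCB, which codes for a calcitonin gene-related peptide, had 62, 86 and 99 reads against 4, 5 and 5 and rose by 4.16 (SE 0.43, adjusted p = 4.7e-07, edgeR). CALCB shares 2.92% of its exonic bases with another gene. Its neighbour CALCA had 12, 16 and 13 reads in senescent TRF2 cells and none in any young library. SCUBE1, a secreted EGF-domain protein, had 13, 10 and 8 reads against 0, 2 and 2 (log2 fold change 2.90, SE 0.73). It passed the filter only through libraries of the rule, so no p-value is given. PCSK1N, the precursor of an inhibitor of prohormone convertase, rose by 2.76 (SE 0.71, adjusted p = 0.0034, edgeR). CALCB, PCSK1N and, below, CHD5, CASKIN1, EFHD1, LYPD5, PRR36 and ZFP2 are outside the naming rule and were added after their values were seen, to account for every member.

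PDK4 rose in TRF2 cells with a log2 fold change of 7.43 (SE 0.43, adjusted p = 3.5e-10, edgeR). The class of enzymes of metabolism and glycan synthesis held 3 members, and all 3 rose, as did 38 of all 39 members. The share of this class among eligible genes was not counted. LIPH, a phospholipase that makes lysophosphatidic acid (3:185506262-185552588, minus strand), had 56, 27 and 44 reads in senescent and 3, 1 and 2 in young TRF2 cells, a log2 fold change of 4.38 (SE 0.48). MGAT4A, which adds a branch to N-glycans, rose by 3.49 (SE 0.55). CYP46A1, the cholesterol 24-hydroxylase known from neurons, rose by 2.50 (SE 0.35), with 39, 44 and 49 reads against 5, 11 and 8. The adjusted p of these 3 was at most 4.7e-05 (edgeR).

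Several members are known from neurons. The class of neuronal and synaptic genes held NOVA2, a splicing regulator, and the synaptotagmins SYT17 and SYT3, and all 3 rose, as nearly all members did. The share of this class among eligible genes was not counted. NOVA2 had 59, 57 and 63 reads in senescent and 0, 6 and 3 in young TRF2 cells, a log2 fold change of 4.31 (SE 0.65, adjusted p = 3.1e-05, edgeR). SYT17 had 77, 74 and 59 against 2, 0 and 3, a change of 5.36 (SE 0.50, adjusted p = 4.3e-07, edgeR). SYT3 had 22, 16 and 25 against 7, 0 and 0, a change of 3.18 (SE 0.71, adjusted p = 0.0015, edgeR). CASKIN1, a synaptic scaffold, and CHD5, a chromatin remodeller high in neurons, rose as well. The log2 fold change of CASKIN1 was 4.88 (SE 0.50), and CHD5, with 2 reads in young TRF2 cells, had a ratio of pooled CPM of 57.5 (95% counting interval 15.5 to 481). CASKIN1 shares 15.9% of its exonic bases with TRAF7, whose own level was 82.8 CPM in young and 147 CPM in senescent cells with the empty vector, and the strand setting of the counting is not given in the sources used here. Beside these members, the 8 neuronal and glial markers summed to 7.21 to 16.2 CPM in young and 5.65 to 13.9 CPM in senescent libraries, and the same 3 of them, with MAP2 and SNAP25 among them, were at 0.5 CPM or more in every library of all groups. Whether other cells had a part in these levels was not tested.

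The class of G protein-coupled receptors held 1 member, GLP2R, and that of immune genes 1, TREM1. How many eligible genes these classes hold was not counted. TREM1, a receptor that amplifies inflammatory signals in myeloid cells, had 31, 28 and 14 reads in senescent TRF2 cells and 0, 0 and 2 in young TRF2 cells, a ratio of pooled CPM of 37.5 (95% counting interval 10 to 315). Of the 8 leukocyte markers, CORO1A reached 0.5 CPM in every library of all groups. CD14 did so in both senescent groups and in no young group. The other markers, among them the pan-leukocyte gene PTPRC, were below 0.5 CPM in at least 1 library of every group. Whether leukocytes had a part in these levels was not tested. GLP2R, the receptor of a gut peptide hormone, rose by 2.09 (SE 0.58, adjusted p = 0.0053, edgeR). LMO2, a cofactor of blood and endothelial transcription factors, had 13, 26 and 15 reads against 2, 1 and 0, a ratio of 18.5 (6 to 92.4). LYPD5, a cell-surface protein of the Ly6 family, rose by 4.26 (SE 0.63).

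Of the remaining members, TTN, with 2 reads in young TRF2 cells, had a ratio of pooled CPM of 77 (95% counting interval 20.9 to 642). BFSP1 rose by 5.35 on the log2 scale (SE 0.32) and EFHD1, a calcium-binding protein of mitochondria, by 3.91 (SE 0.54). FCGBP, a protein of mucus, had 22, 10 and 20 reads against 2, 2 and 0 (3.64, SE 0.70). It passed the filter only through libraries of the rule. PRR36 rose by 2.41 (SE 0.42). The smallest fitted rises among the members called were those of GLP2R (given above), ZFP2 (1.80, SE 0.51) and ANKRD24 (1.70, SE 0.61, adjusted p = 0.026, edgeR). ANKRD24 was the only member whose lowest senescent library did not exceed its highest young library. It was no longer called with offsets for GC content and length (0.95, adjusted p = 0.19, edgeR), nor without young TRF2 library 1 or 2 or senescent TRF2 library 2 or 3. The only member not called was the gene ENSG00000188897, which has no symbol in the annotation. It had 10, 5 and 4 reads in senescent and 0, 3 and 2 in young TRF2 cells (log2 fold change 1.91, SE 0.83). Its test too was open only through libraries of the rule, so no p-value is given.

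All 8 members set apart above were called, with a median log2 fold change of 10.73 (7.70 to 14.81; 9.03 for the median ratio with bounds), against at most 8.37 in the other 31. PALM2AKAP2, a gene that joins PALM2 to the kinase-anchoring AKAP2, had 22707, 16316 and 9751 reads in senescent cells with the empty vector and 21365, 21904 and 22603 with TRF2. In the 9 young libraries it had 11 reads in all. POLR2F, a subunit shared by the nuclear RNA polymerases, had 1373 to 2704 reads in senescent libraries and 9 over the 9 young ones. PYURF had 1114 to 1471 reads in senescent libraries and 1 in young ones, and all its exonic bases are shared with PIGY, which had no read in any of the 15 libraries. ATRIP, the partner of the checkpoint kinase ATR, had 217 to 375 reads against 1, and shares exons with TREX1, which likewise had no read. ZBTB9 (293 to 435 reads), IQCJ-SCHIP1 (184 to 362) and the histone gene H3-7 (45 to 83) had no read in any young library, and DEXI (52 to 95) had 1. ZBTB9 was at least 389-fold, IQCJ-SCHIP1 at least 338-fold and H3-7 at least 68.4-fold higher in senescent than in young TRF2 cells.

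IQCJ-SCHIP1 joins IQCJ to SCHIP1, and SCHIP1 alone went the other way. SCHIP1 had 77, 114 and 104 reads in young cells with the empty vector and 11, 18 and 14 in senescent ones. Of these 8 genes 7 share exonic bases with another gene, against 10 of the other 31. Over the whole table, 10 genes were below 0.1 CPM in each of the 9 young libraries and at 1 CPM or more in each of the 6 senescent ones. Of these, 6 are protein-coding genes and all 6 are members, which the limits of the rule fix in advance for any eligible gene. The mirror image, silent in all senescent and read in all young libraries, held 35 genes, 16 of them protein-coding. At 10 CPM or more the numbers were 3 and 13. The young and senescent libraries differ in deposit as well as in state, and whether both deposits were counted with the same gene models was not tested. Without the 8 genes, 30 of 31 members rose in TRF2 cells, and 29 of 31 with offsets for GC content and length. These 31 include SCUBE1, FCGBP, LCE2C and ENSG00000188897, whose tests were open only through libraries of the rule.

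Senescent cells with TRF2 also showed how many members were read at the level of the rule in libraries that it did not use. Of 39 members 29 had at least 0.5 CPM in each senescent TRF2 library, and none had a mean below 0.1 CPM there. Of the 5738 other genes silent in young cells with the empty vector, 23 (0.401%) were read at 0.5 CPM in each of these libraries. Of the 31 other members, 21 were. By the rule the 5738 had not reached that level in every senescent library with the empty vector. Their low share was thus largely set by the rule. Over all 17636 eligible genes the share was 59.6%. In young TRF2 cells none of the 39 reached 0.5 CPM in every library. Of the members 30 (76.9%) stayed below a mean of 0.1 CPM, against 96% of the other silent genes. These others had started lower, with a median of 0 CPM in young cells with the empty vector against 0.0346 in members.

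Applied to the TRF2-expressing cells alone, the same rule took 47 genes. Of these 22 were shared, which is 56.4% of the members and 46.8% of the second list. Members were missed for the young limit alone in 7 cases and for the senescent limit alone in 8. The list is sensitive to its limits. Among the genes just inside the young limit lay LIPH (0.0872 CPM), ANKRD24 (0.0817), MGAT4A (0.0789) and CYP46A1 (0.0782), and just outside it SMIM27 (0.101), SULT4A1 (0.102) and TTC9 (0.103). Just inside the senescent limit lay GLP2R, whose lowest library had 0.5 CPM, LMO2 and CXCL14 (0.515 each), FCGBP (0.531) and TTN (0.563), and just outside it ZG16B, ALDH1A1 and GLTPD2 (0.486 each). Without the first senescent library with the empty vector the rule took 74 genes. Since the limit holds for each library, leaving out a senescent one cannot shorten the list.

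TRF2 and the empty vector can be set side by side in senescent cells only as a description, since the latter chose the members for high values. By the study's account the TRF2 cells went through more population doublings before they stopped dividing, so that TRF2 and the number of divisions cannot be told apart here. The ratio of mean CPM (TRF2 over empty vector) had a median of 0.945 over the 39 members, with 18 above 1, and ran from 0.153 to 2.7. In 11 members every TRF2 library lay below every library with the empty vector, and in 8 every one lay above. The share of all genes without overlap between these groups was not counted. These numbers therefore describe the members only and show nothing particular to them. Lower values with TRF2 were found in LCE2C, with 44, 50 and 83 reads with the empty vector and 9, 14 and 8 with TRF2 (2.03 ± 0.506 and 0.31 ± 0.106 CPM). The same holds for ENSG00000188897 (17, 25 and 39, then 10, 5 and 4), SCUBE1 (20, 30 and 31, then 13, 10 and 8) and TREM1 (30, 48 and 46, then 31, 28 and 14). In CPM the 3 TRF2 libraries lay below the 3 others in each of these genes, and in CST4, ANKRD24, ATRIP, BFSP1, POLR2F and PYURF as well.

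Higher values with TRF2 were found in ITIH5, with 69, 52 and 60 reads with the empty vector and 211, 200 and 161 with TRF2 (2.12 ± 0.365 and 5.72 ± 1.13 CPM). NOVA2 went from 19, 22 and 20 reads to 59, 57 and 63. CALCB had a ratio of 2.1, CXCL14 of 1.89, SYT17 of 1.73, LYPD5 of 1.72 and PDK4 of 1.44. In each of these genes, and in CASKIN1, every TRF2 library lay above every library with the empty vector. The selection for high values in cells with the empty vector favours ratios below 1.

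**Figure D3:**
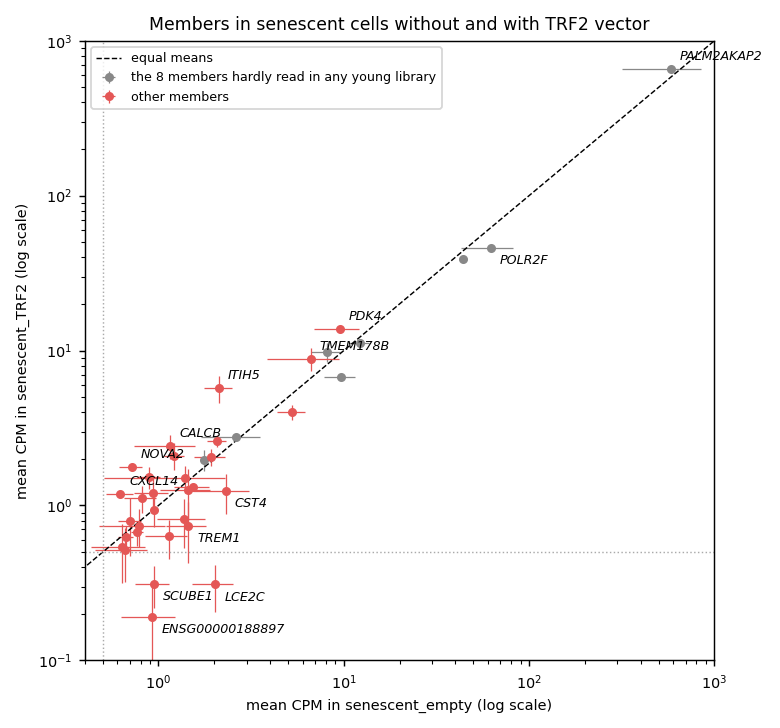
Mean CPM (log scales) of 38 members in senescent cells with the empty vector and with TRF2, with SD bars over 3 libraries (bars reaching 0 run off the log axis). Dotted lines mark 0.5 CPM and the dashed line equal means; ITIH5 and NOVA2 lie farthest above it and LCE2C and ENSG00000188897 farthest below.

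The knockdown of LMNB1 asks whether loss of Lamin B1 in young cells goes with reads on these genes. With siLMNB1 the mean of each of the 39 members stayed below its mean in both senescent groups. None reached 0.5 CPM in every siLMNB1 library, and 25 (64.1%) stayed below a mean of 0.1 CPM, against 92.9% of the 5738 other silent genes. Of these other genes 8 had 0.5 CPM or more in each of these libraries. In young cells with the empty vector, the median was 0.0346 CPM in members and 0 in the other silent genes. Members thus began nearer to the limit of 0.1 CPM. Tested against young TRF2 cells, which differ from siLMNB1 cells in TRF2 as well as in the siRNA, 1 of 39 members was called higher (adjusted p below 0.05 and log2 fold change of at least 0.58, edgeR), where 8.34% of all genes tested were. In 4 members each siLMNB1 library stood above each young TRF2 library, where 25% of all genes tested did so. Counts this low leave small changes undetected.

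The called member was LIPH. It had 14, 23 and 31 reads with siLMNB1, 3, 1 and 2 in young TRF2 cells and 2, 4 and 2 in young cells with the empty vector. Its log2 fold change against young TRF2 cells was 3.32 (SE 0.51, adjusted p = 0.00014, edgeR). The level of 0.649 ± 0.145 CPM lay between those of young cells and the 1.45 ± 0.436 CPM of senescent cells with the empty vector. LIPH was called under every model change and with each of the 6 libraries left out.

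The other 3 members without overlap were FCGBP, SYT17 and GLP2R. FCGBP had 2, 7 and 12 reads with siLMNB1 and 2, 2 and 0 in young TRF2 cells (log2 fold change 2.17, SE 0.79). Its test was open only through libraries of the rule, so no p-value is given. SYT17 had 6, 5 and 5 reads against 2, 0 and 3 (1.54, SE 0.67, adjusted p = 0.1, edgeR), and GLP2R 7, 12 and 13 against 7, 4 and 7 (0.74, SE 0.63, adjusted p = 0.42, edgeR). ANKRD24 had 11, 31 and 20 reads with siLMNB1 against 1, 5 and 14 (1.53, SE 0.62, adjusted p = 0.075, edgeR). Without young TRF2 library 3 ANKRD24 and ITIH5 were called too, without young TRF2 library 1 SYT3, and without siLMNB1 library 1 FCGBP. Without young TRF2 library 2 or siLMNB1 library 3 the count was 2. No member was called lower. Members with high senescent levels stayed near 0 with siLMNB1. CST4, LCE2C, TREM1 and 6 of the 8 members set apart above had no read there, and PDK4 had 10 over the 3 libraries.

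**Figure D4:**
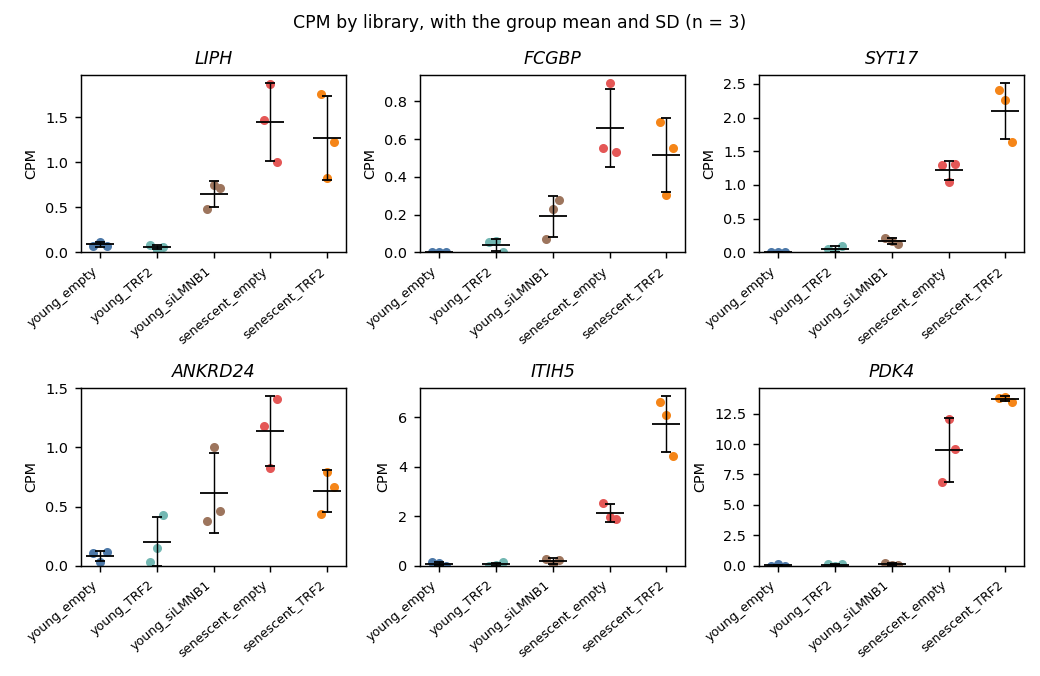
CPM of 6 members in each library (points), with the group mean and SD (n = 3), on linear axes that start at 0. With siLMNB1 LIPH lies between the young and the senescent groups, whereas PDK4 and ITIH5 lie near 0 in all 9 young libraries and ITIH5 is higher in senescent cells with TRF2 than with the empty vector.

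The members lie on 17 chromosomes, with 6 (15.4%) on chromosome 19, where 6.25% of eligible genes lie, and 4 on chromosome 16. They share exonic bases with another gene in 17 cases (43.6%), as do 46.3% of eligible genes, and 3 lie inside another protein-coding gene. The median exonic length was 5330 bases, against 4480 in eligible genes and 2640 in the other silent genes. A gene on the same strand ended within 10 kb upstream of 7 members (17.9%), as it did for 19.2% of eligible genes and 19.1% of the other silent genes. The members without shared exonic bases number 22, and all 22 rose in TRF2 cells. Among these, FCGBP and LCE2C passed the filter only through libraries of the rule.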

How the data were processed

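RNA was sequenced from MRC-5 fibroblasts in 5 groups of 3 libraries, mapped from the labels. The authors deposited counts of reads per gene, without normalization. Per the submitters' processing notes they used Trimmomatic for trimming and STAR with GRCh38 for mapping and counting. The release of the gene models and the strand setting are not given in the sources used here. DESeq2 served for the authors' own comparisons, which were not used here.

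Genes were placed with GENCODE 44. Of the table's 57272 genes 56948 were matched, and the others hold 0.0563% of counts. CPM used column totals. The counts of all 15 libraries were fitted with edgeR 4.0.16 (R 4.3.3, limma 3.58.1), a mean per group, TMM and filterByExpr (cutoff 0.313 CPM, 15799 genes kept), and tested by quasi-likelihood with p-values adjusted by the Benjamini-Hochberg method over all genes kept. Thresholds of log2 fold change were 1 for senescence and 0.58 for siLMNB1. Ratios of pooled counts have exact 95% intervals for counting error only, and a group without reads was held at 3 counts. Promoters came from RefSeq (GRCh38.p14), and exon overlaps from GENCODE. Python 3.11.15, numpy 2.4.6, pandas 2.3.3, scipy 1.17.1 and matplotlib 3.10.9 were used for the rest. Alternatives were DESeq2 1.42.0 (size factors, Wald test), no filter, only the compared libraries, a replicate block, offsets for GC content and length, other limits, and each library left out.

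1 member is not reported here by name. The members, gene lists and tests were chosen with earlier results of these data known. Members were named by rule: the 10 highest per kb in senescent cells with the empty vector, the 12 largest fold changes in TRF2 cells, those called with siLMNB1, the 5 lowest ratios of TRF2 to empty vector, the 5 just inside and 3 genes just outside each limit, and the 3 highest of each class with 3 or more members. The fit was tested on simulated counts of senescent and young TRF2 cells (15365 genes). With a log2 change of 2 given to 200 genes, 99.5% of them were found, and 0 others. The simulation gave all genes the same fixed spread and, apart from that change, each gene the same mean in all groups. It therefore does not describe genes nearly unread in young cells.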

Additional observations from a re-analysis of the deposited data

How the results depend on the processing

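The number of members rests on the limits. It was 25 with a young mean below 0.05 CPM and 94 below 0.2 CPM, 121 with at least 0.25 CPM and 20 with at least 1 CPM in each senescent library with the empty vector, 22 without genes that share exonic bases, and 45 to 74 with 1 of the 6 libraries of the rule left out. The 74 came without the first senescent library, and leaving out a senescent library cannot lower the number.

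Between 36 and 39 members were called higher in senescent TRF2 cells under each change of model (37 with offsets for GC content and length, 36 of the 36 tested with only the 6 libraries compared, 39 with DESeq2's Wald test) and 37 to 38 with 1 library left out. The count was 22 of the 22 members sharing no exonic base, where fewer members were tested. FCGBP and LCE2C are among these 22 and passed the filter only through libraries of the rule. Of single members 497 of 504 fold changes kept their direction and call, ANKRD24 lost its call in 6 and ENSG00000188897 gained one in 1. With siLMNB1 the count of 1 became 2 without a filter on low counts, 3 with DESeq2's Wald test (ANKRD24 and FCGBP beside LIPH) and 1 to 3 with 1 library left out. FCGBP entered the Wald test only through libraries of the rule. The cause of these shifts was not tested. At 0.5 CPM in each senescent TRF2 library there were 29 members, 30 to 32 with 1 library left out and 14 among those sharing no exonic base. A count of this kind cannot fall when a library is left out. With siLMNB1 3 members reached 0.25 CPM in each library, and 0 to 1 reached 0.5 CPM with 1 library left out. In young TRF2 cells the count was 0 in all runs.

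Deviations of libraries with the same replicate number correlated at 0.00716 to 0.0603 in the TRF2 comparison and at −0.0448 to 0.0814 with siLMNB1. Between different numbers the correlations were −0.0461 to 0.0264 and −0.143 to 0.0819. With 3 libraries per group, these small values cannot decide whether the numbers pair the libraries. With the replicate block 38 members were called in TRF2 cells and 1 with siLMNB1, and with the block and the offsets 37 and 1. Restricting the members to the 31 not set apart, an alternative added after seeing the data, gave 30 calls in TRF2 cells, 29 with the offsets, and 1 call with siLMNB1. Among the 31 are SCUBE1, FCGBP, LCE2C and ENSG00000188897, which passed the filter only through libraries of the rule.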

Other observations

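The rule applied to TRF2-expressing cells took 25 genes that are no members. Among those with the highest levels in senescent TRF2 cells were SMIM10L2A (3.99 CPM with the empty vector, 3.11 with TRF2), C1orf50 (2.22 and 2.29) and DUSP26, a phosphatase (2.22 and 1.79), which the limit of 0.1 CPM in young cells with the empty vector had kept out at 0.125, 0.173 and 0.117 CPM. SOWAHA was at 0.431 CPM in senescent cells with the empty vector and 1.46 with TRF2, and the apolipoprotein gene APOB at 0.308 and 0.929. KCNA2, a voltage-gated potassium channel of neurons, stood at 0.889 and 1.41 CPM in senescent cells and at most at 0.0862 CPM in the young groups. These genes were picked after their values were seen, and no test was made.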
